A study of Homo sapiens with 21 samples.

Results

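The comparison described here sets 3 mRNA libraries of MM.1S cells labelled Aiolos knockdown against 3 libraries of untreated MM.1S cells, 6 of the 21 libraries of the series. Every gene listed at 1 TPM or more in at least 3 of the 21 libraries was kept, which gave 12559 of 17691 genes. MM.1S is a human multiple myeloma line, a tumour of plasma cells. The untreated cells are labelled wild type and received neither drug nor virus. The cells labelled Aiolos knockdown received lentivirus that expresses a hairpin RNA (shRNA) against Aiolos and were collected after 72 h. A second set of 3 libraries is labelled control knockdown and non-treated, and served as a second baseline. The sources used here do not give its hairpin or its time in culture. Untreated cells were made the main baseline because the control knockdown was already known to carry a stress response. Untreated cells differ from the labelled libraries in the virus, the hairpin and the time since transduction, so these cannot be told apart in the main comparison. All groups come from 1 cell line, and nothing in the labels says whether a group is a pool or a clone. The remaining libraries, 3 of cells with a hairpin against ARID2 (a subunit of the PBAF chromatin remodeller) and 9 of cells given pomalidomide at 1 µM, lend their spread to the tests. Pomalidomide is a myeloma drug that makes the cereblon ubiquitin ligase degrade Ikaros and Aiolos.

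Aiolos, the protein of IKZF3, is a zinc finger transcription factor of the Ikaros family and is made mainly in lymphocytes and plasma cells. It forms dimers with Ikaros (IKZF1), binds DNA at sites with a GGGAA core and works with chromatin remodellers to repress or activate genes. In myeloma cells loss of Ikaros and Aiolos protein is known to lower IRF4, a factor on which these cells depend, and IRF4 in turn is linked to MYC.

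TPM, the length-scaled share of a library's transcripts, keeps no record of sequencing depth, so depth is unknown here and no counting interval can be given. Listed genes added up to 968547 to 968652 TPM in the untreated libraries and to 954084 to 956847 TPM in the libraries labelled Aiolos knockdown. Across genes, libraries correlated at 0.9943 to 0.9947 within the untreated group, at 0.9929 to 0.9951 within the labelled group and at 0.9547 to 0.9566 between them. The labelled libraries and the control knockdown correlated at 0.9601 to 0.9625, and the control knockdown and untreated cells at 0.986 to 0.9873. Between the labelled libraries and cells after 72 h of pomalidomide the range was 0.9337 to 0.9381. These correlations are across genes, which are not independent replicates. Within these groups every pair of libraries correlated at 0.9929 or more. With 3 libraries a group no outlier test was run.

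The targeted transcript went against the label. IKZF3 (ENSG00000161405, chromosome 17, 39757715 to 39864188, minus strand, GRCh38) was listed at 98.02, 96.72 and 94.52 TPM in untreated libraries 1 to 3 and at 127.28, 121.02 and 141.36 TPM in those labelled Aiolos knockdown. Every labelled library was above every untreated library, by 0.42 ± 0.05 in log2(TPM + 1) (difference ± SE, limma, adjusted p = 1.3e-07). The control knockdown stood lower than both, at 83.54, 79.15 and 81.35 TPM, so the difference from it was larger, at 0.67. A level above untreated cells was not particular to the labelled libraries. IKZF3 was at 118.16, 118.65 and 121.73 TPM in the ARID2 knockdown and at a mean of 111.6 TPM after 72 h of pomalidomide. A gene-level TPM counts all transcripts of a gene, and protein was not measured. For these reasons the 3 libraries with a hairpin aimed at IKZF3 are called the libraries labelled Aiolos knockdown throughout. The paralog IKZF1, whose protein pairs with Aiolos, fell by 0.14 ± 0.04 against untreated cells (45.72, 44.53 and 47.73 against 41.04, 40.31 and 43.48 TPM, adjusted p = 0.0072) but was 0.13 above the control knockdown. The cereblon gene CRBN was at 16.27, 15.74 and 18.23 TPM in untreated and at 17.9, 16.57 and 17.08 TPM in labelled libraries, which overlap (difference 0.04, adjusted p = 0.67). ARID2 was 22.72 ± 2.16 TPM (SD, n = 3) in the labelled libraries and 29.76 ± 2.30 TPM in untreated cells.

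Changes from untreated cells were widespread. Of the 12559 genes tested, 4584 (36.5%) rose and 4486 (35.7%) fell at an adjusted p under 0.05, so 72.2% of all genes passed. At least 2-fold changes were rarer, with 695 genes (5.53%) higher and 514 (4.09%) lower, counts that depend on the pseudocount: 1101 higher with 0.1, and 300 higher and 262 lower with 5. The median difference over all genes was 0.01. Libraries did not overlap for 36.4% of genes on the higher side and 36.0% on the lower side. Counts for gene lists are read against these shares. Against the control knockdown 67.9% of genes passed: 4669 (37.2%) were above it and 3853 (30.7%) below. That excess turned with scaling, to 4199 above and 4400 below with median-of-ratios scaling and to 4204 and 4236 with quantile normalization. Against untreated cells the same scalings gave 4393 higher and 4701 lower, and 4348 and 4587. Differences of 2-fold or more made up 4.15% (above) and 3.11% (below), and libraries did not overlap for 39.0% and 31.6%. The control knockdown itself had 2169 genes (17.3%) higher and 3570 (28.4%) lower than untreated cells, of which 88 (0.701%) and 21 (0.167%) reached 2-fold. In that comparison 45.7% of genes passed, and of those 37.8% were higher, a share that became 48.6% with ribosomal protein and mitochondrial genes left out of the total and 45.5% or 46.7% with those scalings. The comparisons share libraries, so their values are set side by side and not correlated. The difference between the labelled libraries and the control knockdown is also the test of whether these groups differ from untreated cells by different amounts.

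Sequences are shown for IRF4, which fell deepest among the listed plasma cell factors, and for ribosomal protein genes, which moved together. Their part in the changes was not tested. RefSeq (GRCh38.p14) gives the following 250 bases before the IRF4 start site (chr6:391502-391751, plus strand), printed 5′ to 3′ with the core of the Ikaros family site, GGGAA or its reverse complement TTCCC, in capitals.
IRF4: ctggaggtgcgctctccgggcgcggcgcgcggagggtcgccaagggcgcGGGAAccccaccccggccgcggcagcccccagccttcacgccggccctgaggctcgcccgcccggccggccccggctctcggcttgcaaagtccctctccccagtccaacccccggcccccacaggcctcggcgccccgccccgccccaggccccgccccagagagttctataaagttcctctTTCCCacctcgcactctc
The core occurs 2 times, starting at positions -201 and -18 from the start site. These letters are common: 61.5% of the upstream windows of 9755 tested genes with a RefSeq promoter hold them on either strand, as do 62.5% of those of genes at least 2-fold higher and 65.2% of those at least 2-fold lower. A match describes the letters only and is not a binding site.

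Ribosomal protein mRNAs start with a run of pyrimidines (C or T) known as the 5′ TOP tract, through which cells tie their translation and stability to nutrient signals. The 4 windows below run from 10 bases before to 20 bases from the start site, 5′ to 3′, with the pyrimidine run in capitals. They show the 2 genes with the largest rises, RPS12 as one of the most abundant, and RPLP1, the sole member that fell.
RPL13A: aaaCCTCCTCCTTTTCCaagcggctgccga
RPS27: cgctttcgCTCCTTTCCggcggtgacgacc
RPS12: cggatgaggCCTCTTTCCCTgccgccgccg
RPLP1: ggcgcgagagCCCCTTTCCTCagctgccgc
These windows lie at chr19:49487598-49487627, chr1:153990752-153990781, chr6:132814559-132814588 and chr15:69452808-69452837, all on the plus strand. A run of at least 8 pyrimidines within 5 bases of the start was found in 48 of 63 ribosomal protein genes with a RefSeq promoter (76.2%) and in 11.6% of all tested genes. RPLP1 has such a run too.

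IRF4 and most, but not all, of the listed plasma cell transcription factors fell. IRF4 (ENSG00000137265, chromosome 6, 391739 to 411447) was at 471.35, 459.28 and 476.06 TPM in untreated libraries and at 134.94, 129.16 and 145.55 TPM in the labelled ones. The 2 groups lie far apart, and each is tight. The difference was -1.77 ± 0.04 (adjusted p = 7.44e-19). In the control knockdown IRF4 was higher than in untreated cells, at 618.59, 635.77 and 638.74 TPM, so the difference from that baseline was -2.20. The ARID2 knockdown was at 453 TPM and cells after 72 h of pomalidomide at 229.4 TPM. PRDM1 (Blimp-1), the repressor that shuts off the B cell programme, went from 142.19, 145.09 and 144.06 TPM to 89.2, 83.96 and 90.68 TPM (-0.70 ± 0.04). XBP1, which drives the secretory pathway, went from 1089.66, 1097.29 and 1071.65 TPM to 762.61, 762.3 and 776.44 TPM (-0.50 ± 0.02). Neither gene's groups overlapped, and both were above untreated cells in the control knockdown, by 0.18 and 0.24. Among the 12 plasma cell transcription factors kept of 14 listed, 8 were lower, 3 higher and 1 did not pass (median -0.52, range -1.77 to 0.83). Among all genes 35.7% were lower and 36.5% higher. RUNX2 fell deepest after IRF4, from a mean of 27.7 to 10.1 TPM (-1.37), and POU2AF1, a coactivator of octamer factors, fell by 0.67. BHLHA15 (MIST1), which shapes the secretory cell, was outside that list and is among the largest falls of all: 61.96, 70.48 and 60.24 TPM against 10.5, 15.71 and 8.84 TPM (-2.40 ± 0.16). Not all of these genes were low after 72 h of pomalidomide. Means there were 130.9 TPM for PRDM1, 1079 TPM for XBP1, 63.99 TPM for RUNX2, 194.4 TPM for POU2AF1 and 97.95 TPM for BHLHA15.

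**Figure D1:**
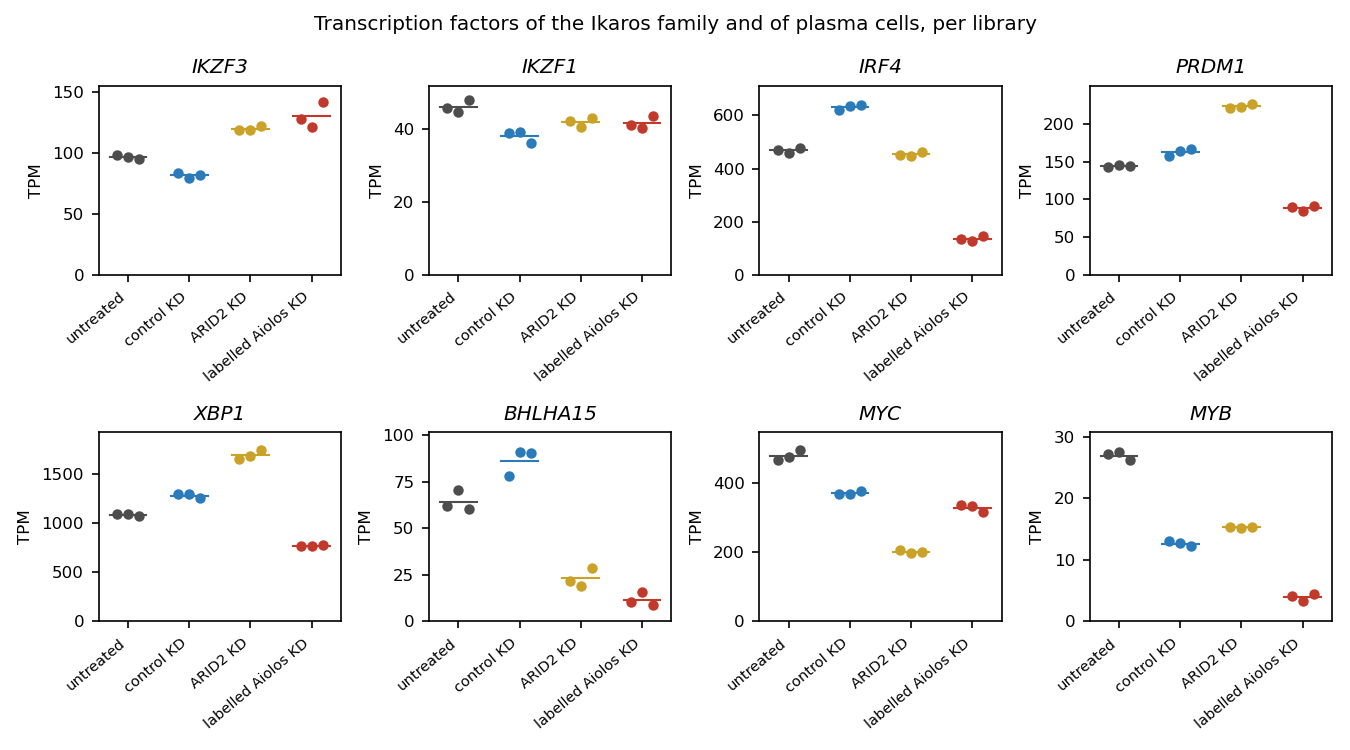
TPM (y axis, from 0) of 8 transcription factor genes in each library of 4 groups of 3 (x axis: untreated, control knockdown, ARID2 knockdown and labelled Aiolos knockdown). Points are libraries and bars are group means. IRF4 sits at 129.16 to 145.55 TPM in the labelled libraries and at 459.28 to 476.06 TPM in untreated cells, while IKZF3 has its highest mean, 129.9 TPM, in the labelled libraries.

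MYC, which drives growth and ribosome synthesis, fell less than IRF4. It was at 467.96, 474.54 and 495.49 TPM in untreated and at 335.09, 333.17 and 315.74 TPM in labelled libraries, without overlap (-0.55 ± 0.03, adjusted p = 3.44e-12). The control knockdown lay between them at 370.8 TPM (-0.37 from untreated), and the labelled libraries were 0.18 below it. The ARID2 knockdown was lower than either, at 201.3 TPM. Of 40 MYC targets, 38 fell, 1 (TFRC) rose and 1 did not pass (median -0.74), against 35.7% falling among all genes. Against the control knockdown 34 fell (median -0.38), and in the control knockdown itself 36 fell from untreated cells (median -0.34). Of all genes 30.7% fell in the first of these comparisons and 28.4% in the second. MYB, a factor of dividing blood cells, fell from 27.12, 27.46 and 26.2 TPM to 4.18, 3.26 and 4.46 TPM (-2.50 ± 0.09), and the control knockdown was between them at 12.6 TPM.

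The genes of the ribosome split in opposite directions. Of 79 ribosomal protein genes, 76 rose and 1 fell, against 36.5% rising among all genes, with a median of 0.47 and a range of -0.19 to 1.14. Their summed level was 86940 to 89570 TPM in the untreated libraries and 120700 to 128400 TPM in the labelled libraries. That is 9.08% ± 0.145 and 13.0% ± 0.383 of listed TPM (SD, n = 3), and the shares in control knockdown and ARID2 knockdown cells were 9.81% ± 0.103 and 9.77% ± 0.171. No library of those 3 groups reached the lowest labelled library. RPL13A, a protein of the large subunit, rose from 2128.73, 2168.3 and 2150.37 TPM to 4726.18, 5026.58 and 4451.11 TPM (1.14 ± 0.04), and RPS27, of the small subunit, rose by 0.93. RPLP1 fell by 0.19. Translation factors listed as having 5′ TOP mRNAs rose less evenly: 13 of 20 rose and 3 fell (median 0.29). A pyrimidine run as defined above was found in 10 of the 13 with a RefSeq promoter (76.9%). EEF1A1, which brings aminoacyl-tRNA to the ribosome, went from 5473.15, 5480.01 and 5448.37 TPM to 8470.5, 8669.02 and 8695.93 TPM (0.66 ± 0.02). Ribosomal protein genes have many near-identical pseudogenes, so the value of a single member depends on how reads were assigned to copies.

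Genes that build ribosomes went the other way. All 40 ribosome biogenesis genes fell against untreated cells (median -0.63, range -1.64 to -0.16), where 35.7% of all genes did. Against the control knockdown 31 of 40 fell (median -0.26), and 36 fell between untreated cells and the control knockdown (median -0.35). The shares of all genes that fell in these comparisons were 30.7% and 28.4%. EBNA1BP2, a nucleolar factor of large subunit assembly, went from 93.34, 92.95 and 92.5 TPM to 27.19, 30.75 and 29.54 TPM, far below every untreated library (-1.64 ± 0.05), with the control knockdown at 69.76 TPM. NAT10, an acetyltransferase of ribosomal RNA, fell by 1.10 and DDX21, a helicase of ribosomal RNA synthesis, by 0.94. A TPM value is a share, so a rise in abundant ribosomal protein mRNA lowers all other shares. With ribosomal protein and mitochondrial genes left out of the total, the median over all genes moved to 0.10, and IRF4 still fell by 1.68 and IKZF3 rose by 0.53.

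**Figure D2:**
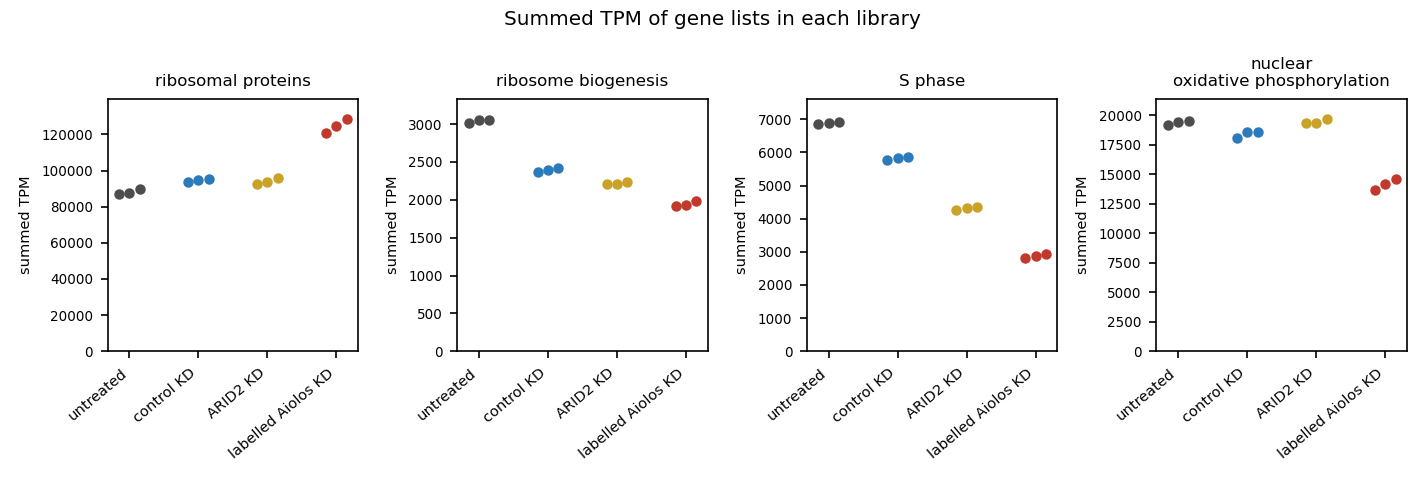
Summed TPM (y axis, from 0) of 4 gene lists in each library of 4 groups of 3. Points are single libraries, drawn in order of value. Ribosomal protein genes sum to 120700 to 128400 TPM in the labelled libraries against 86940 to 89570 TPM in untreated cells, and the other 3 lists are lowest in the labelled libraries.

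Genes of DNA replication fell as a block. All 50 S phase genes fell (median -1.16), 35 of them at least 2-fold, where 4.09% of all genes did. Their summed level was 6848 to 6909 TPM in untreated, 5768 to 5855 TPM in control knockdown and 2811 to 2926 TPM in labelled libraries. RRM2, a subunit of the enzyme that makes deoxyribonucleotides, went from 432.7, 433.12 and 430.51 TPM to 76.23, 76.82 and 85.79 TPM, the deepest fall of the list (-2.43 ± 0.06). The control knockdown was between the groups at 258.4 TPM. MCM6, of the replicative helicase, went from 233.63, 243.01 and 239.5 TPM to 66.89, 69.71 and 70.58 TPM (-1.77 ± 0.03), and here the control knockdown stayed near untreated cells at 237.3 TPM. TYMS, which makes thymidylate, fell by 1.37. Against the control knockdown 49 of 50 S phase genes fell (median -0.90), where 30.7% of all genes did. In bulk RNA, fewer cells in a phase and less RNA per cell cannot be told apart.

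Mitotic genes fell less. Among 60 G2 and mitosis genes 53 were lower, 2 higher and 5 without a call (median -0.58), and 6 fell at least 2-fold. Of all genes 35.7% were lower, and 4.09% fell at least 2-fold. CDC25B, a phosphatase that starts mitosis, went from 124.52, 129.59 and 128.26 TPM to 50.25, 56.73 and 51.83 TPM (-1.25 ± 0.05). BIRC5 (survivin), of the chromosomal passenger complex, fell by 1.02. The exceptions were CCNB2, a cyclin, which went from 88.36 to 102.8 TPM (0.22), and ECT2, a regulator of cell division, which went from 50.78 to 64.15 TPM (0.33). Mitotic genes summed to 6667 to 6746 TPM in untreated and 4271 to 4582 TPM in labelled libraries. The ARID2 knockdown was lower for mitotic genes, at 2680 to 2764 TPM, and higher for S phase genes, at 4264 to 4341 TPM, than the labelled libraries.

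p53 target genes and inhibitors of cyclin-dependent kinases rose. Of 25 such genes, 22 rose, 2 fell and 1 (MDM2) did not pass (median 1.01), and 14 rose at least 2-fold, where 5.53% of all genes did. BTG2, an antiproliferative gene, went from 851.8, 843.41 and 848.98 TPM to 1872.63, 1892.69 and 1895.23 TPM (1.15 ± 0.03). CDKN1A (p21), which blocks entry into S phase, went from 25.52, 21.68 and 22.11 TPM to 91.32, 96.91 and 86.03 TPM (1.94 ± 0.06). The control knockdown was already at 65.31 TPM for CDKN1A, and the labelled libraries were 0.48 above it. PHLDA3, a brake on AKT, rose from 6.13, 5.52 and 4.83 TPM to 39.64, 41.96 and 34.08 TPM (2.61 ± 0.09). TNFRSF10B, a receptor of the death ligand TRAIL, rose from 30.5 to 125 TPM. MDM2, a ubiquitin ligase of the list, stood at 105.33, 102.06 and 104.31 TPM and at 103.94, 94.34 and 109.22 TPM (-0.02, adjusted p = 0.69). Against the control knockdown 23 of 25 were higher (median 0.55), and in the control knockdown 11 were above untreated cells (median 0.13). The shares of all genes that were higher in these comparisons were 37.2% and 17.3%. The ARID2 knockdown held higher levels of several of these genes, with CDKN1A at 584.8 TPM and PHLDA3 at 155.2 TPM.

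Genes of the BCL2 family, which decide whether a cell undergoes apoptosis, rose on both sides. Of 15 kept, 10 rose, 3 fell and 2 did not pass (median 0.42), beside 36.5% rising and 35.7% falling among all genes. BCL2L1 (BCL-XL), which blocks apoptosis, went from 366.01, 367.24 and 375.49 TPM to 735.06, 724.48 and 691.13 TPM (0.95 ± 0.03). BMF, which promotes it, went from 49.82, 47.83 and 52.77 TPM to 187.37, 186.06 and 183.63 TPM (1.87 ± 0.03, adjusted p = 5.51e-20). Both were near untreated cells in the control knockdown, at 371.2 and 49.15 TPM. BBC3 (PUMA) and BAX, both p53 targets that promote apoptosis, rose by 1.79 and 1.11.

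**Figure D3:**
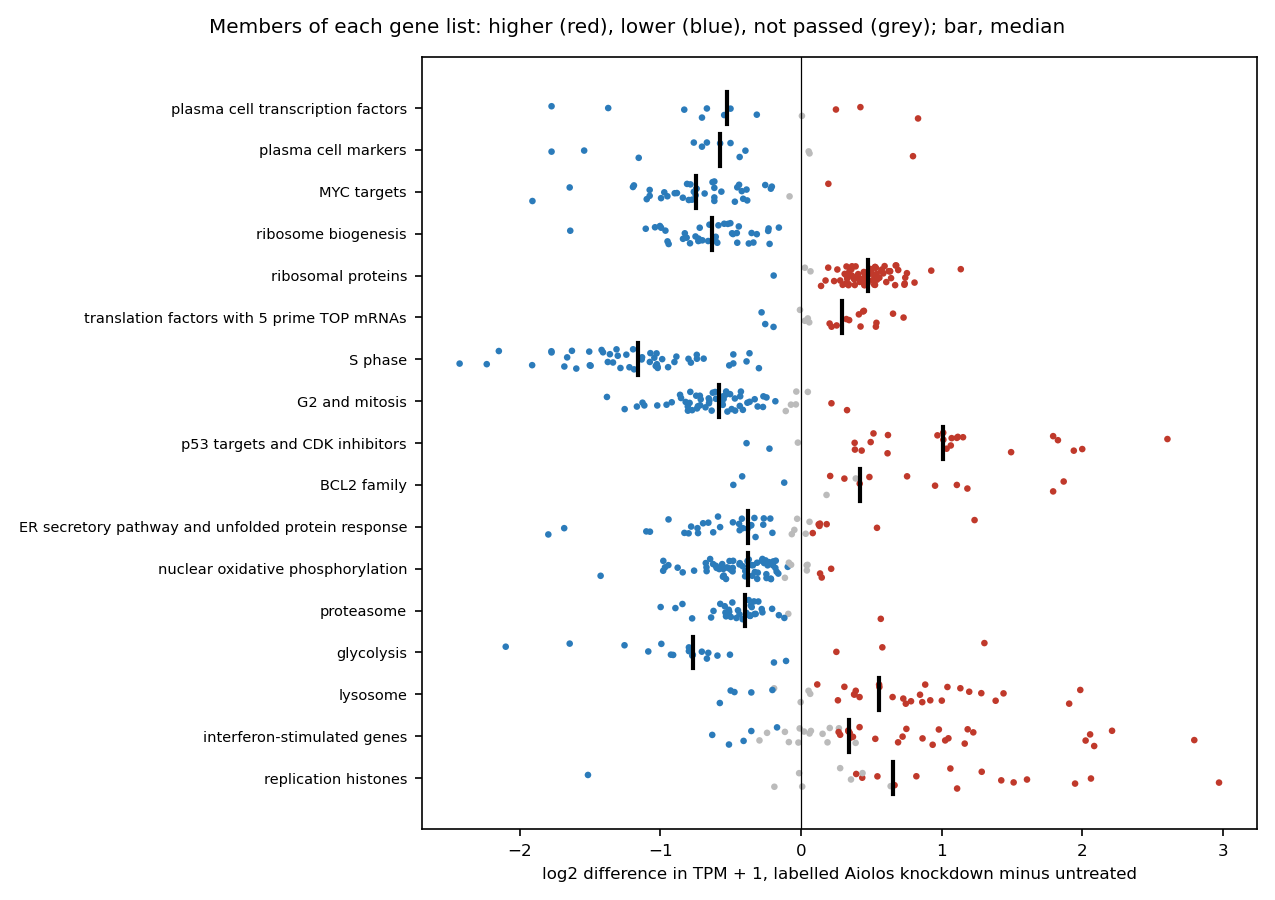
Difference in log2(TPM + 1) between the libraries labelled Aiolos knockdown and untreated cells (x axis) for each kept member of 17 gene lists (rows). Red points passed the test and were higher, blue points passed and were lower, grey points did not pass, and bars are medians. Of 79 ribosomal protein genes 76 are red, with a median of 0.47, and S phase genes all lie left of 0 with a median of -1.16.

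Plasma cell identity was checked with 13 markers, IRF4 among them. Of these, 10 fell, 1 rose and 2 did not pass (median -0.58), where 35.7% of all genes fell. JCHAIN and SDC1 were still among the abundant transcripts. JCHAIN, which joins antibody units, was at 3269.36, 3214.41 and 3674.08 TPM in labelled libraries against 5762.25, 5779.59 and 5651.48 TPM in untreated cells (-0.76 ± 0.04). SDC1 (CD138), the surface marker of plasma cells, stood at 722.57, 757.05 and 659.87 TPM against 677.36, 685.41 and 693.98 TPM, so the groups overlapped (0.06, adjusted p = 0.22). CD38 rose, from 6.92 to 12.8 TPM (0.80). FKBP11, a secretory pathway isomerase, fell by 1.54.

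Surface proteins of myeloma moved in both directions. Of 21 kept, 12 rose, 7 fell and 2 did not pass (median 0.28). The share that fell was near the 35.7% of all genes, of which 36.5% rose. Changes of at least 2-fold were 2 in each direction. TNFRSF17 (BCMA), the survival receptor that CAR T cells target, went from 959.64, 981.88 and 924.3 TPM to 413.64, 428.83 and 443.58 TPM (-1.15 ± 0.03), and was higher in the control knockdown at 1088 TPM. GPRC5D, also a therapy target, went from 128.17, 120.16 and 124.28 TPM to 45.71, 46.02 and 45.91 TPM (-1.42 ± 0.06). ITGB7, an integrin subunit that MAF-driven myeloma makes in excess, went from 8778.16, 8566.48 and 8871.54 TPM to 18893.99, 19515.58 and 17138.43 TPM, 2.12 times the untreated mean (adjusted p = 9.76e-15). ICAM1, an adhesion molecule, rose from 23.8, 21.68 and 22.63 TPM to 90.93, 96.74 and 86.63 TPM (1.96 ± 0.06), with the control knockdown between at 45.78 TPM. IL6R, the receptor of the myeloma growth factor interleukin 6, rose from 451.2 to 686.8 TPM.

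Most listed nuclear genes of secretion, protein folding and energy metabolism had lower transcript levels, where 35.7% of all genes fell and 36.5% rose. Of 41 genes of the ER secretory pathway and unfolded protein response, 29 fell and 7 rose (median -0.38). PDIA4, which forms disulfide bonds, went from 584.65, 586.32 and 579.09 TPM to 266.9, 275.45 and 272.39 TPM (-1.10 ± 0.03), and SSR1, of the translocon, fell by 1.68. Of 69 nuclear oxidative phosphorylation genes, 60 fell and 3 rose (median -0.38). ATP5B, the catalytic subunit of ATP synthase, went from 2024.73, 1981.93 and 2035.64 TPM to 1275.12, 1307.39 and 1277.65 TPM (-0.65 ± 0.02) and was at 1950 TPM in the control knockdown. The 13 mRNAs encoded in mitochondria did not share this fall: 5 rose, 4 fell and 4 did not pass (median 0.02, 15.5% ± 0.13 of listed TPM in untreated and 15.7% ± 0.838 in labelled libraries). The sign of that small median changes with the scaling between libraries. Of 36 proteasome genes 34 fell (median -0.40), and of 21 glycolysis genes 18 fell and 3 rose (median -0.77), with HK2, the first enzyme of the pathway, from 48.72, 45.26 and 48.2 TPM to 9.6, 10.01 and 11.31 TPM (-2.10 ± 0.06). Of 27 cholesterol synthesis genes 18 fell and 5 rose (median -0.45). INSIG1, which holds back the sterol sensor in the ER, fell from 471.8 to 201.3 TPM and SCD, a fatty acid desaturase regulated with them, fell by 1.13. Heat shock genes and chaperones fell in 18 of 21 cases (median -0.54). In the control knockdown 18 of 21 were lower than in untreated cells too (median -0.36), where 28.4% of all genes were.

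Amino acid stress genes read differently against the 2 baselines. The integrated stress response raises ATF4 and its targets when translation initiation is blocked, and serine synthesis, amino acid transport and tRNA charging enzymes are among those targets. Against untreated cells, 7 of 22 genes of this response rose, 9 fell and 6 did not pass (median -0.05). Among all genes 36.5% rose and 35.7% fell. Against the control knockdown 18 fell and 1 rose (median -1.02), where 30.7% of all genes fell and 37.2% rose. In the control knockdown itself 19 of the 22 genes were above untreated cells (median 0.98). None was below at an adjusted p under 0.05, where 17.3% of all genes were higher and 28.4% lower. This stress response was known beforehand and was the reason for the untreated baseline, so its rise here is no independent finding. CHAC1, a glutathione-degrading ATF4 target, was at 5.49, 5.26 and 5.33 TPM in untreated, at 83.6 TPM in control knockdown, and at 5.25, 5.44 and 5.36 TPM in labelled libraries (difference from untreated -0.002, adjusted p = 0.99). ASNS, asparagine synthetase, had group means of 47.2 TPM in untreated, 165.6 TPM in control knockdown and 28.3 TPM in labelled libraries. For ATF4 these means were 465.1, 974.9 and 416.9 TPM. Members of the list did not move as a unit against untreated cells. CREBRF, a regulator of the unfolded protein response, rose from 4.45, 4.23 and 4.66 TPM to 23.91, 23.15 and 28.66 TPM (2.26 ± 0.08), SESN2, which restrains growth signalling, rose by 0.86, and XPOT, a tRNA exporter, fell by 0.59. The median of this list turned positive, at 0.07, when ribosomal protein and mitochondrial genes were left out of the total.

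Most listed genes of serine synthesis, tRNA charging and amino acid transport fell against both baselines, where 35.7% of all genes fell against untreated cells. Against the control knockdown 30.7% of all genes fell, and the control knockdown itself had 17.3% higher and 28.4% lower than untreated cells. All 11 serine and one-carbon enzymes were lower than in untreated cells (median -1.09) and lower than in the control knockdown (median -1.86), whereas 8 of them were higher in the control knockdown than in untreated cells (median 0.77). PSAT1, of serine synthesis, was at 90.12, 90.54 and 87.29 TPM in untreated and at 35.98, 34.59 and 39 TPM in labelled libraries (-1.27 ± 0.06), with 358.8 TPM in the control knockdown. MTHFD1, of the cytosolic folate cycle, fell by 1.53 and was also lower than untreated in the control knockdown, by 0.53. Of 20 aminoacyl-tRNA synthetases 16 fell (median -0.64), and YARS, for tyrosine, went from 88.2, 85.5 and 88.83 TPM to 41.41, 39.73 and 41.78 TPM (-1.08 ± 0.04). In the control knockdown 12 of the 20 were above and 4 below untreated cells. Of 13 amino acid transporters 7 fell and 4 rose (median -0.35), with 4 falls and 3 rises of at least 2-fold. SLC7A5, the large neutral amino acid carrier, went from 121.64, 128.44 and 128.17 TPM to 27.19, 25.72 and 23.89 TPM (-2.26 ± 0.05) while the control knockdown was at 217.4 TPM. SLC1A5, the glutamine carrier, fell from 372.2 to 130.9 TPM. SLC7A8, another carrier of neutral amino acids, rose from 0.56, 0.36 and 0.59 TPM to 10.38, 9.42 and 10.53 TPM (2.89 ± 0.12), and the control knockdown was at 0.402 TPM.

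**Figure D4:**
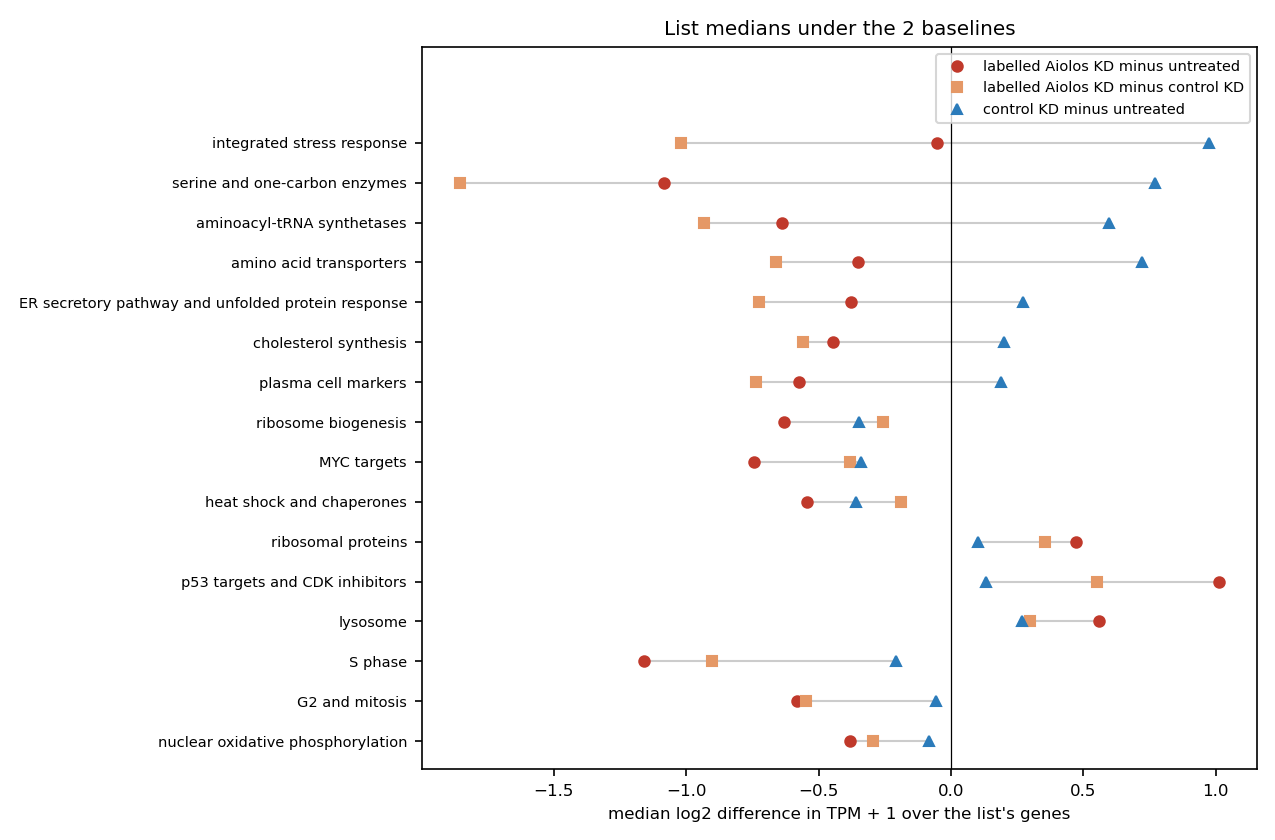
Median difference in log2(TPM + 1) over the members of 16 gene lists (rows) in 3 comparisons: labelled Aiolos knockdown minus untreated (red circles), labelled Aiolos knockdown minus control knockdown (orange squares) and control knockdown minus untreated (blue triangles). Grey lines join the 3 medians of a list. The integrated stress response is at -0.05, -1.02 and 0.98, while S phase genes are at -1.16, -0.90 and -0.21.

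The largest rise was of MME, CD10, a surface peptidase of germinal centre and precursor B cells. MME (ENSG00000196549, chromosome 3, 155024124 to 155183729, plus strand) was at 5.68, 5.59 and 4.76 TPM in untreated and at 161.2, 155.68 and 178.49 TPM in labelled libraries (4.71 ± 0.08, adjusted p = 5.51e-20). The control knockdown was at 11.31, 10.04 and 10.91 TPM, the ARID2 knockdown at 3.89 TPM and cells after 72 h of pomalidomide at 369 TPM. KRT15, an epithelial keratin, rose from 0.43, 0.7 and 0.68 TPM to 35.72, 35.19 and 32.57 TPM (4.47 ± 0.10). FRMD3, a membrane skeleton gene, rose from 4.75, 4.15 and 4.48 TPM to 82.01, 76.64 and 89.92 TPM (3.94 ± 0.11). TNFRSF10D, a decoy receptor of TRAIL, rose from 5.78, 6.03 and 6.29 TPM to 86.95, 85.63 and 89.25 TPM (3.65 ± 0.08). After 72 h of pomalidomide KRT15 was at a mean of 4.865 TPM, FRMD3 at 4.468 TPM and TNFRSF10D at 29.96 TPM. For KRT15 and FRMD3 the control knockdown lay near untreated cells, at 0.541 and 4.004 TPM. For RND3, a small GTPase (3.32 ± 0.08), and PLAC8 (3.03 ± 0.06) it lay part of the way, at 24.13 and 17.25 TPM between untreated means of 7.12 and 5.21 TPM and labelled means of 79.86 and 49.62 TPM. The chemokine gene CCL7, the complement receptor C3AR1, the muscle acetylcholine receptor subunit CHRNA1 and LRRN2 rose by 3.07 to 3.54 from untreated means under 2 TPM. CEMP1 was listed at 0 in all 3 untreated libraries and at 9.09, 24.29 and 23.76 TPM in labelled ones, so no fold is given, and it overlaps AMDHD2 on the other strand. PCED1B, with a rise of 2.97, overlaps AMIGO2 on the other strand. The kit does not mark strand, so reads of such pairs cannot be told apart.

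The largest fall was of LRP8, a receptor of the LDL receptor family that takes up apolipoprotein E and reelin. LRP8 (ENSG00000157193, chromosome 1, 53242364 to 53328070, minus strand) went from 53.98, 52.6 and 53.84 TPM to 6.39, 5.94 and 6.17 TPM (-2.93 ± 0.05), and the control knockdown was at 38.38 TPM. CYP26A1, which breaks down retinoic acid, went from 92.64, 92.96 and 89.77 TPM to 14.91, 17.56 and 13.28 TPM (-2.52 ± 0.09) and stood at 94.71 TPM in the control knockdown. HRASLS2, a phospholipid-modifying enzyme, went from 12.75, 14.16 and 7.83 TPM to 0.59, 0.6 and 0.89 TPM (-2.86 ± 0.18), and the control knockdown was above both at 39.2 TPM. POLR3K, a subunit of RNA polymerase III, went from 115.21, 107.32 and 114.6 TPM to 18.45, 21.34 and 17.28 TPM (-2.51 ± 0.07), and it overlaps SNRNP25 on the other strand. MARCKSL1, an actin-linked membrane protein, fell by 2.24, and TMEFF1, which shares exons with the readthrough gene MSANTD3-TMEFF1, by 2.77. ADGRG5 and DDN fell by 2.34 and 2.26. In all 12 genes the labelled and untreated libraries were apart, which the choice of these genes required.

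**Figure D5:**
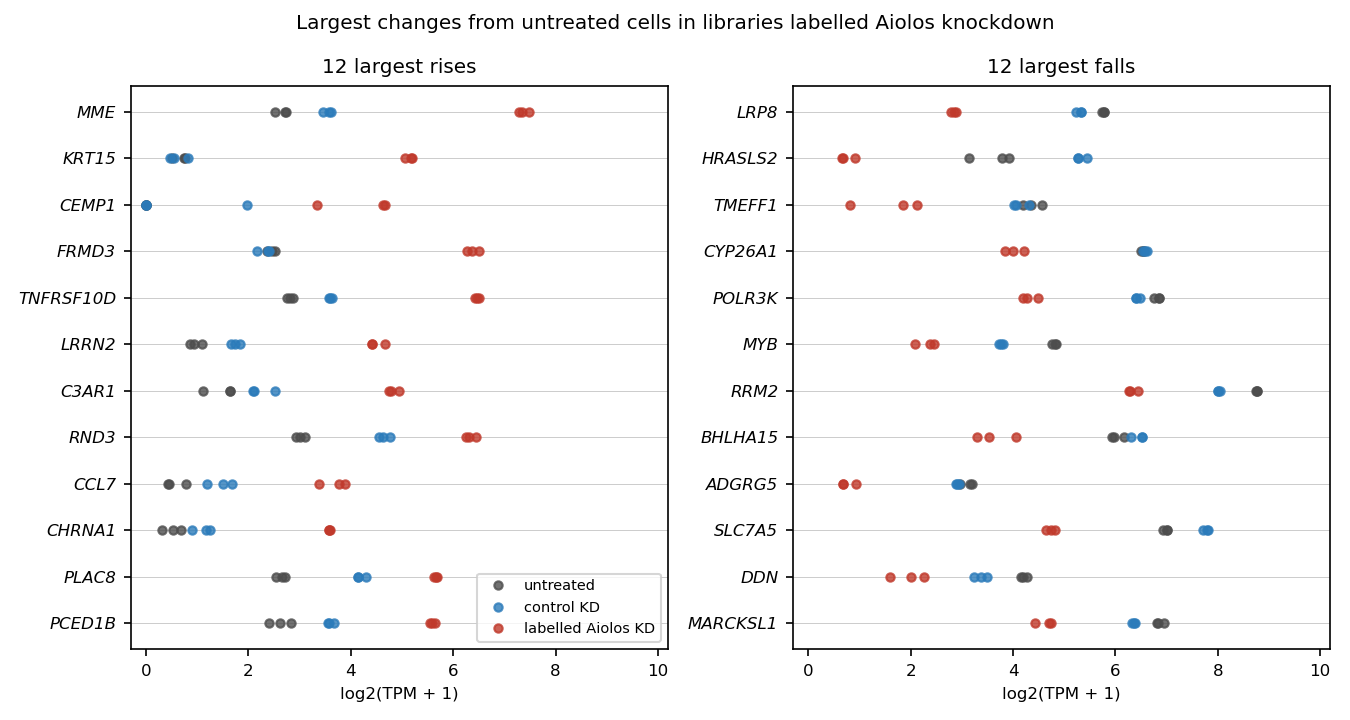
log2(TPM + 1) (x axis) of the 12 genes with the largest rises (left) and the 12 with the largest falls (right) from untreated cells in each library of the untreated, control knockdown and labelled groups, 3 points a group. MME rises from 5.34 to 165.1 TPM and LRP8 falls from 53.5 to 6.16 TPM in the group means, and the control knockdown lies beside untreated cells for some genes (KRT15, CYP26A1) and part of the way for others (RND3, PLAC8).

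Genes that differed from both baselines by a large amount were found by ranking on the smaller of the 2 differences. Beside the genes above, PON1, an esterase, rose from 0.86, 0.87 and 1.37 TPM to 14.41, 14.47 and 15.42 TPM (2.96 from untreated and 3.26 from control knockdown). CEACAM1, an inhibitory adhesion receptor, was at 0.33, 0.56 and 0.47 TPM in untreated and at 6.95, 7.74 and 7.34 TPM in labelled libraries (2.52 and 2.67). GBP4, an interferon-induced GTPase, and ASXL3, a partner of the deubiquitinase BAP1, rose by 2.57 and 2.67 from untreated means under 1 TPM. BRINP2, SIPA1L2 and FAM189A2 rose by 2.45 to 2.88 from untreated cells. Among falls, AQP3, a water and glycerol channel, had the highest level, at 283.13, 276.96 and 282.74 TPM in untreated and 68.16, 69.06 and 66.95 TPM in labelled libraries (-2.03 ± 0.04 and -1.83). GFI1, a repressor in blood cells, went from 21.45, 20.13 and 20.52 TPM to 4.41, 3.6 and 4.07 TPM (-2.11 and -1.98). CAV2, a caveolin, fell by 1.87 and 1.85 and was at 40.65 TPM in the control knockdown against 41.09 TPM in untreated cells. SDF2L1, an ER chaperone partner, fell by 1.80 and 1.90. GRB14, an adaptor of the insulin receptor, RGS16, a regulator of G protein signalling, GCAT, a glycine-producing enzyme, and CNTN1, an adhesion protein, fell by 1.85 to 2.12 from untreated cells.

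Interferon-stimulated genes changed in part. Of 44 kept, 25 rose, 5 fell and 14 did not pass (median 0.34), and 10 rose at least 2-fold. The counts in this paragraph stand beside 36.5% rising, 35.7% falling and 5.53% rising at least 2-fold among all genes. STAT2, which carries the interferon signal to the nucleus, went from 95.43, 92.12 and 93.26 TPM to 217.53, 208.24 and 216.93 TPM (1.19 ± 0.03) and was at 149 TPM in the control knockdown. IFIT3, an antiviral effector, rose from 1.62, 1.52 and 1.83 TPM to 17.12, 17.47 and 17.79 TPM (2.80 ± 0.08), and IFI6 and XAF1 rose by 2.06 and 2.21. ISG15, a ubiquitin-like protein, stood at 20.11 and 16.87 TPM (-0.24, adjusted p = 0.08). Genes of the MHC class II pathway, which presents antigen to T cells, mostly fell, 9 of 15 with 4 higher (median -0.34). CIITA, its master regulator, went from 17.76, 18.28 and 18.84 TPM to 6.77, 6.04 and 6.61 TPM (-1.37 ± 0.07), and CD74, the invariant chain, fell by 0.89. Of 25 NF-kB subunits and targets 11 rose and 7 fell (median 0.10). TNFAIP3, which ends NF-kB signalling, rose by 0.57 and PLEK fell by 1.02. The chemokine CCL3 was at 910.1 TPM in untreated, 4960 TPM in control knockdown, 7951 TPM in ARID2 knockdown and 580 TPM in labelled libraries (-0.65 from untreated). CCL3 has near-identical copies, so its value depends on how reads were assigned to them.

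Markers of other cell types differed in level. B cell markers, 10 of them listed, summed to 113.2 to 115.3 TPM in untreated and 136.4 to 142.5 TPM in labelled libraries, with 2 of the 10 at 0 throughout. The 6 erythroid markers summed to 120.6 to 132.8 TPM in untreated and 44.41 to 54.06 TPM in labelled libraries, with HBD, a globin gene, at a mean of 114 TPM in untreated cells. Other marker lists were lower. The summed level of 12 T and NK cell markers was 3.60 to 4.38 TPM in untreated and 3.17 to 3.38 TPM in labelled libraries, with 6 and 5 of the 12 listed at 0 throughout. For 9 markers of HEK293 cells, in which lentivirus is usually packaged, it was 6.146 to 6.266 and 6.197 to 9.318 TPM. For 14 epithelial and stromal markers it was 7.504 to 8.289 and 5.109 to 8.99 TPM, with 3 of them listed at 0 in all untreated libraries. The 13 myeloid markers summed to 5.40 to 9.41 TPM in untreated and 22.7 to 26.7 TPM in labelled libraries, most of it from CD68, a lysosomal glycoprotein that many cells make (4.88, 5.65 and 3.68 against 20.45, 24.76 and 19.64 TPM), and 3 of the 13 were at 0 in all labelled libraries. The part of other cells in these results was not tested. Differences also moved with transcript length. The median was -0.02 in the 3102 genes with the shortest transcripts (up to 2312 bases) and 0.07 in the 3099 with the longest (from 5337 bases). Of the shortest 30.4% were higher and 36.6% lower, and of the longest 41.7% were higher and 32.4% lower. The part of length in these results was not tested.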

How the data were processed

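The authors deposited 1 table of TPM, with 17691 gene symbols and 1 column per library. The kit was TruSeq RNA v2, per the labels' protocols, and the submitters' processing notes name the build hg38. The sources used here do not give the aligner, quantifier or annotation. Values were analysed as log2(TPM + 1), which understates the change of low genes. The filter (1 TPM in 3 of 21 libraries) kept 174 genes that reached it in exactly 3 libraries and left out 179 that did so in exactly 2. All 21 libraries entered 1 linear model with 7 group means in limma 3.58.1 (R 4.3.3), with a trend in mean expression and 14 residual and 5.28 prior degrees of freedom. Tests were two-sided, adjusted by Benjamini-Hochberg over all kept genes within each of 3 comparisons, and tested on simulated data. The labels name no separate cultures, so p-values measure the spread between libraries, which may be technical. No pairing of the samples by replicate number was detected. Alternatives in pseudocount, filter, scaling, model and libraries are in the closing section.

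The members, the 42 gene lists and the rules were chosen with earlier results of these data known. Named genes were IKZF3, IKZF1, IRF4, MYC, PRDM1, XBP1, CRBN and ARID2, the 12 largest rises and 12 largest falls among genes that passed without overlap and reached a mean of 5 TPM in the higher group, the 8 in each direction with the largest smaller difference from the 2 baselines, and up to 4 members a list with the smallest p. Named after their values were seen were RPLP1, TFRC, CCNB2, ECT2, MDM2, SDC1, CD38, JCHAIN, GPRC5D, CHAC1, ASNS, ATF4, ISG15, CCL3 and CTSZ. Gene symbols (17466 of 17691) were looked up in GENCODE 29 (GRCh38, equal to hg38). CIITA, CRBN, ITGB7, EBNA1BP2, FKBP11, JCHAIN, MDM2, MTHFD1, NPC2, TNFRSF10B, TYMS and YARS overlap a gene on the other strand, and CD79B, RRM2 and SSR1 one on the same strand, so their values are uncertain. A few list members are not reported here.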

Additional observations from a re-analysis of the deposited data

How the results depend on the processing

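Of 3424 values of 215 named-gene results under the alternatives, 3397 kept their direction and side of the threshold, 25 lost the call and 2 changed sign: CRBN, not called, at -0.002 with quantile normalization and between -0.004 and 0.096 with 1 library left out (lowest without untreated replicate 2). Counts of genes that passed stayed within 1.5 times. Genes at least 2-fold higher numbered 1101 with a pseudocount of 0.1 and 300 with one of 5, and genes at least 2-fold lower 262 with one of 5. With ribosomal protein and mitochondrial genes left out, 5356 genes rose and 3791 fell, and higher genes made up 48.6% rather than 37.8% of those that changed in the control knockdown. No pairing by replicate number was detected at a threshold of 0.1 (same-number correlations of 0.047, 0.033 and 0.005). As 2 of 3 labelled libraries were closest to their own number, these values do not settle whether the samples were paired. A replicate block gave 4551 higher and 4472 lower genes. Leaving out each library in turn gave 4353 to 4474 higher and 4296 to 4467 lower genes. TPM keeps no depth, so counting error for low genes is unknown, and untreated cells lack virus, hairpin and matched time.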

Other observations

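Lysosomal genes rose. Of 35, 26 were higher and 5 lower than in untreated cells (median 0.56), against 36.5% higher among all genes, and 9 rose at least 2-fold. TPP1, a lysosomal peptidase, was at 98.15, 97.3 and 96.04 TPM in untreated and at 239.56, 233.16 and 240.71 TPM in labelled libraries (1.28 ± 0.03), with 136.4 TPM in the control knockdown. CTSB, a cysteine protease, rose from 90.6 to 209 TPM, NPC2, which carries cholesterol out of lysosomes, rose by 1.44 and CTSZ, a further protease, by 1.91. The list was also above untreated cells in the control knockdown, where 22 of 35 genes were higher (median 0.27), against 17.3% of all genes.

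Listed B cell stage genes did not move together. BACH2, a repressor that keeps B cells from becoming plasma cells, rose from 6.18, 7.17 and 7.06 TPM to 18.82, 18.03 and 20.39 TPM (1.37 ± 0.06), with 7.65 TPM in the control knockdown. TCF3 (E2A) fell from 271.99, 271.94 and 281.61 TPM to 158.03, 160.73 and 145.47 TPM (-0.83 ± 0.04), and the signalling subunit CD79B of the B cell receptor fell by 0.82. CD79B was the only one that fell among the 6 kept B cell surface and lineage markers, of which 4 rose, 3 of them at least 2-fold, and 1 did not pass (median 0.82). CR2, a complement receptor of B cells, went from 41.05, 40.30 and 40.82 TPM to 88.62, 89.02 and 98.09 TPM (1.15 ± 0.05). BLK, a kinase of B cell receptor signalling, was at 0.281 and 2.17 TPM (1.31 ± 0.14). VPREB3, of the precursor B cell receptor, was listed at 0, 0 and 1.06 TPM in untreated and at 3.25, 2.94 and 1.81 TPM in labelled libraries. Of the 11 B cell stage genes kept of 16, 5 rose, 4 fell and 2 did not pass (median 0.07), a median whose sign changes when the filter is raised to 5 TPM. These counts are near the shares of all genes, 36.5% rising and 35.7% falling. Among immediate early genes, DUSP5, a phosphatase of the ERK kinases, was at 394.52, 406.91 and 405.9 TPM in untreated and 766.67, 778.13 and 768.7 TPM in labelled libraries (0.94 ± 0.03), and KLF6 and IER5 rose by 1.02 and 1.25.

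Replication histone genes did not follow S phase genes. Of 22 kept of 32, 14 were higher, 1 lower and 7 did not pass (median 0.65), where 36.5% of all genes were higher. Their sum was 86.5 to 96.0 TPM in untreated and 168.4 to 180.6 TPM in labelled libraries, with 251.8 to 287.3 TPM in the ARID2 knockdown. HIST1H2AC was at 6.59, 6.48 and 5.22 TPM and at 27.1, 24.57 and 27.37 TPM (1.95 ± 0.08). Histone genes have close copies, and most replication histone mRNAs carry no poly(A) tail.

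The delta-globin gene HBD, of red cell precursors, was listed at 108.07, 115.53 and 118.48 TPM in untreated MM.1S cells and at 40.91, 39.85 and 46.09 TPM in labelled libraries (-1.41 ± 0.06). The control knockdown was at 111.8 TPM and the ARID2 knockdown at 204.4 TPM. Of the 3 erythroid markers kept, 2 fell and 1 did not pass.

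The remaining lists gave the following counts, beside 36.5% rising and 35.7% falling among all genes. Of 20 NRF2 antioxidant genes 5 rose and 13 fell (median -0.32), with HMOX1, which degrades heme, at 23.3 and 80.4 TPM. Of 45 actin and adhesion genes 12 rose and 25 fell (median -0.29): ITGAL, an integrin of white blood cells, rose by 1.43 and FLNA, which crosslinks actin, fell by 2.18. Of 40 splicing factors 12 rose and 22 fell (median -0.16), and of 44 chromatin regulators with long mRNAs 16 rose and 17 fell (median -0.01). Of 17 MHC class I pathway genes 7 rose and 8 fell (median -0.03). The signs of these last 2 medians change with the scaling between libraries. Of 10 genes of the cereblon ligase 2 rose and 5 fell (median -0.11), and of 20 immediate early genes 10 rose and 4 fell (median 0.22).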
